A study of Mus musculus with 15 samples.

Results

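Imprinted genes are expressed mainly or only from the allele inherited from one parent, and most lie in clusters in which a differentially methylated control region sets the expressed allele of several neighbours. Many of them act on fetal growth, and a large share falls in expression after birth. *H19*, a noncoding RNA expressed from the maternal allele, is known for staying abundant in skeletal muscle, and its neighbour *Igf2*, expressed from the paternal allele, encodes the growth factor IGF2. A list of 43 imprinted genes, grouped by imprinted cluster, was looked up among the 30672 Ensembl genes of a count table, by matching each identifier to its symbol in the GENCODE M21 annotation of GRCm38. Of these genes, 42 had a row, and *Phlda2* was not analysed here. By textbook assignment the list held 13 genes expressed from the maternal allele, 22 from the paternal allele and 8 whose expressed allele depends on tissue or isoform. Alleles were not measured, so every value is the sum over both.

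Transcripts were sequenced in the tibialis anterior, a fast muscle of the lower leg, of male 129Pas mice aged 7 weeks. The groups were wild type mice (WT, n = 4), wild type mice given tamoxifen (WT+TAM, n = 4), *Mtm1*-/y mice (Mtm1-/y, n = 4) and *Mtm1*-/y mice given tamoxifen (Mtm1-/y+TAM, n = 3). *Mtm1* is the X-linked gene of the phosphoinositide phosphatase myotubularin, and its loss in males models a congenital muscle disease, X-linked myotubular myopathy. Tamoxifen (TAM) binds oestrogen receptors and activates or blocks them by tissue, and the sources used here do not give the regimen. No group carried a transgene or Cre by its labels.

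Libraries held 18042558 to 45823277 counts, and levels are given in CPM, counts scaled to a common library size after correction by the trimmed mean of M-values. *Mtm1* itself stood at 14.9 to 15.6 CPM in WT, 13.5 to 17.7 CPM in WT+TAM, 2.91 to 3.63 CPM in Mtm1-/y and 3.04 to 3.71 CPM in Mtm1-/y+TAM, so no library went against its genotype label. The 5 fast fibre genes (*Ckm*, *Acta1*, *Mylpf*, *Myh4*, *Tnnt3*) summed to 150000 to 207000 CPM in WT, 137000 to 171000 CPM in WT+TAM, 119000 to 156000 CPM in Mtm1-/y and 126000 to 131000 CPM in Mtm1-/y+TAM. The second principal component of log2 CPM set Mtm1-/y replicate 1 apart and the third WT+TAM replicate 1, and results are also given without both. Summed over 5 fibroblast markers, WT+TAM replicate 1 reached 3070 CPM while its group otherwise lay between 681 and 1220 CPM, and over 5 adipocyte markers it reached 38.4 CPM while its group otherwise lay between 0.267 and 3.72 CPM. Mtm1-/y replicate 1 held the least of the fibroblast markers, 324 CPM against 781 to 1320 CPM in the other Mtm1-/y libraries. Whether libraries came from separate cages or litters is not given, so p-values measure the spread between these samples.

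Calls rest on edgeR's quasi-likelihood test at a Benjamini-Hochberg adjusted p under 0.05 over the 15533 genes past the count filter. Fold changes are log2 values ± the standard error (SE) of the fit. The filter was passed by 37 of the 42 members. The other 5 were *Rtl1* (0 to 9 counts per library), *Dio3* (0 to 21), *Ascl2* (0 to 3), *Magel2* (0 to 2) and *Nap1l5* (1 to 13), and a count of 0 allowed up to 3 counts, or 0.0672 to 0.159 CPM, for counting error alone. These limits do not cover the spread between mice. Tissue RNA was pooled over cells, so fewer cells of a type and less RNA per cell cannot be told apart.

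Per kilobase of exon, *H19* was the most abundant member in WT muscle at 578 ± 72.5 CPM per kb (SD, n = 4). *Gnas*, the gene of the stimulatory G protein alpha subunit, followed at 96 ± 4.95 CPM per kb and the amino acid transporter gene *Slc38a4* at 40.1 ± 11.6 CPM per kb. The splicing protein gene *Snrpn* (21.6 ± 8.27 CPM per kb) came next, then the cyclin-dependent kinase inhibitor gene *Cdkn1c* (13.5 ± 3) and the noncoding *Meg3* (12.3 ± 2.18). *Igf2* stood far down the order at 0.203 ± 0.0626 CPM per kb. The steps from *H19* to *Gnas* and from *Gnas* to *Slc38a4* exceeded the range between libraries. Among the 36 neighbouring pairs in the WT order, 26 had ranges that overlapped, including *Slc38a4* with *Snrpn* and the run from *Cdkn1c* to *Blcap*.

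**Figure D1:**
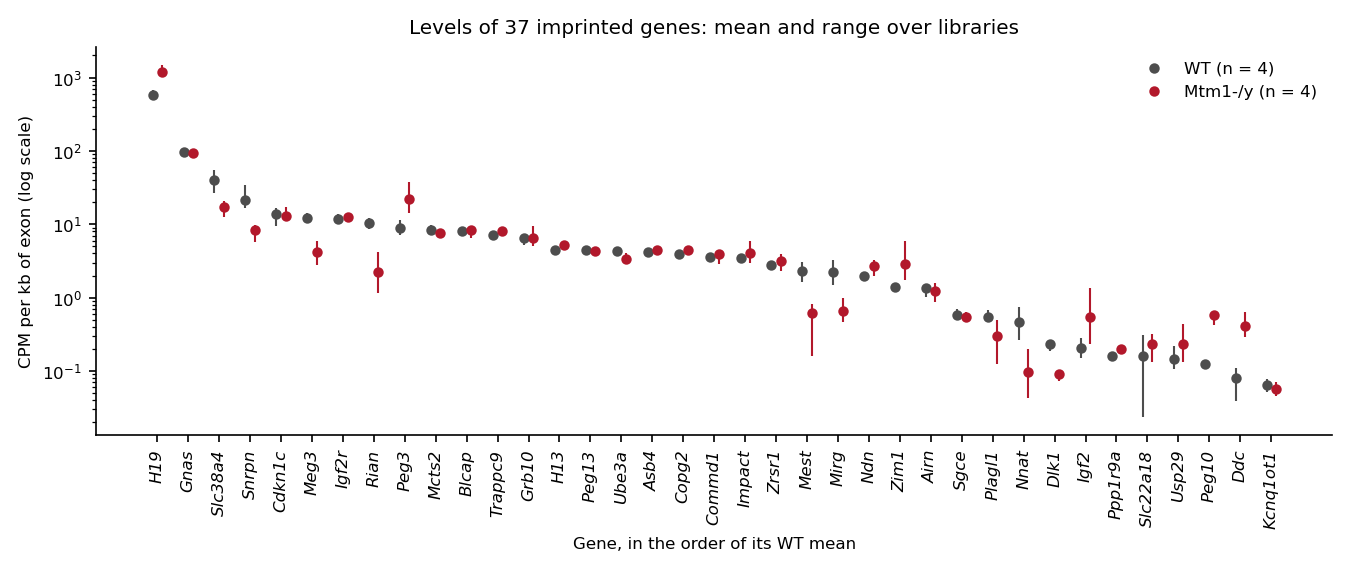
Level of each of the 37 tested imprinted genes in CPM per kb of exon (log axis), in the order of the WT mean; points are group means and lines the range over 4 libraries, WT in grey and Mtm1-/y in red. *H19* lies above every other member in both groups, and *Slc38a4*, *Snrpn*, *Meg3*, *Rian*, *Mirg*, *Mest*, *Nnat* and *Dlk1* have Mtm1-/y ranges wholly under those of WT.

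Several of the noncoding members are precursors of microRNAs, and the sequences of a few are shown because they are the products that a change in the host transcript could carry. The mRNA libraries did not measure the mature forms. RefSeq (GRCm38.p6) places 2 mature miRNAs on the strand of *H19*, 3 on that of *Meg3*, 6 on that of *Rian*, 26 on that of *Mirg* and 2 on that of *Mest*. Capitals mark the seed, bases 2 to 8, which pairs with targets. miR-675 lies within *H19*, miR-770 within *Meg3*, miR-370 within *Rian* and miR-335 within *Mest*, and the last pair, both within *Mirg*, carry the only seed that 2 of the miRNAs in the listed hosts share.
miR-675-5p: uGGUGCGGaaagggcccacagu
miR-675-3p: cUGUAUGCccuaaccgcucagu
miR-770-5p: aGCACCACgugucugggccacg
miR-370-3p: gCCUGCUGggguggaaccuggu
miR-335-5p: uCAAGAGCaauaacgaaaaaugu
miR-453: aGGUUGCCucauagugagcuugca
miR-496a-5p: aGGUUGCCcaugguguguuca
Their own gene rows were nearly empty: of 14 miRNA genes on a list of hosts' miRNAs, 8 had a row, with at most 10 counts in any library, and none passed the filter.

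The first comparison asked which imprinted transcripts differ in muscle without *Mtm1*. Between Mtm1-/y and WT, 15 of the 37 tested members were called (40.5%), where 30.4% of all tested genes were. Higher in Mtm1-/y were *H19*, *Igf2*, *Peg3*, *Ddc*, *Peg10*, *Trappc9* and *H13*, and lower were *Dlk1*, *Meg3*, *Rian*, *Mest*, *Nnat*, *Snrpn*, *Ube3a* and *Slc38a4*. The 7 higher members were set against 15.5% of all genes higher, and the 8 lower ones against 14.9% lower. Of the called members 12 changed over 2-fold, where 9.89% of all genes were called with such a change. The median log2 fold change of the members was 0.06, with a median size of 0.33 against 0.32 over all tested genes. Groups did not overlap for 9 members that were higher in Mtm1-/y and 8 that were lower, where 14.8% and 15.7% of all genes did not overlap, 30.5% in all. An unadjusted p under 0.05 was reached by 19 members and by 41.6% of all genes. Without Mtm1-/y replicate 1 and WT+TAM replicate 1, 18 members were called. The count was 8 with no filter on low counts, and fell to 9 without WT replicate 1 and to 9 without WT replicate 2. With upper-quartile scaling the split was 5 higher and 9 lower.

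The same question was put to treated mice. These are other libraries than those compared first, but the fit to all 15 libraries gave both comparisons a shared estimate of spread. Between Mtm1-/y+TAM and WT+TAM, 12 of 37 members were called (32.4%), against 20.1% of all genes. Of these 6 were higher, as were 10.6% of all genes, and 6 lower, as were 9.46%. *H19*, *Kcnq1ot1*, *Copg2*, *Ddc*, *Peg10* and *Commd1* were higher, and *Dlk1*, *Meg3*, *Rian*, *Mirg*, *Snrpn* and *Ube3a* lower. The change was over 2-fold for 7 called members, against 6.01% of all genes, and groups did not overlap for 6 members higher and 5 lower, against 17.2% and 14.4% of all genes, 31.6% in all. An unadjusted p under 0.05 was reached by 18 members and by 33.7% of all genes. The median size of the log2 fold change was 0.57 for members and 0.29 for all genes. In both genotype comparisons 8 members were called, each in the same direction, namely *H19*, *Dlk1*, *Meg3*, *Rian*, *Ddc*, *Peg10*, *Snrpn* and *Ube3a*. They were 53.3% of the untreated and 66.7% of the treated calls, where over all genes the shared calls were 45.3% and 68.7%. Over all genes 2143 were called in both comparisons, 2142 of them in the same direction. The treated count was 17 without the 2 libraries that stood apart, 3 without Mtm1-/y+TAM replicate 2, 7 without Mtm1-/y+TAM replicate 3 and 7 with no filter.

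**Figure D2:**
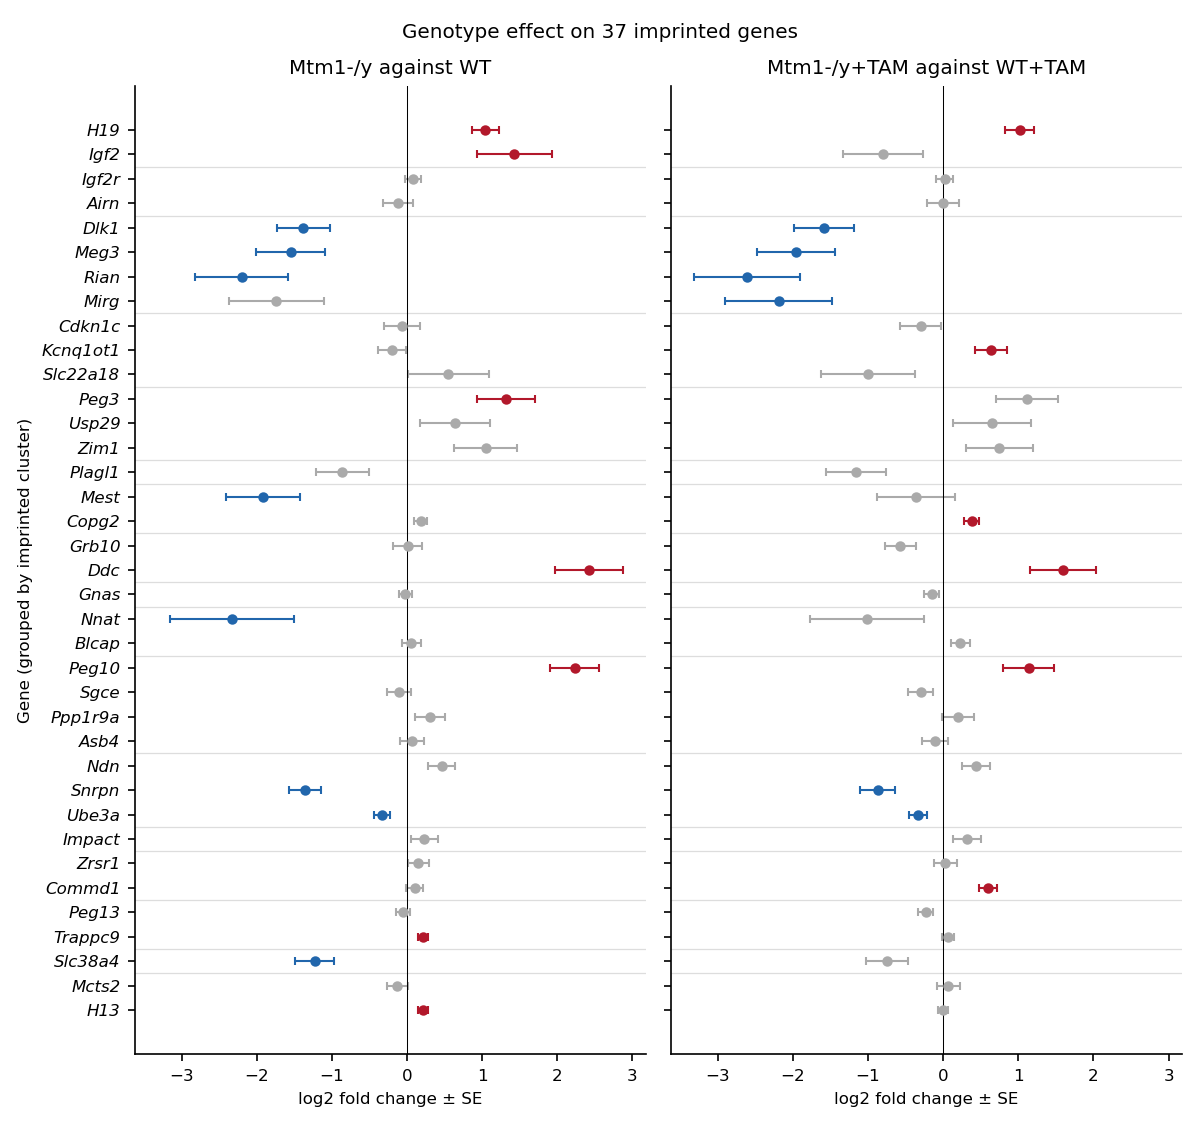
Log2 fold change ± SE of the 37 tested members, grouped by imprinted cluster, for Mtm1-/y against WT (left) and Mtm1-/y+TAM against WT+TAM (right); red points were called higher, blue points called lower and grey points not called. The 4 tested members of the *Dlk1*-*Dio3* cluster lie left of 0 in both panels, and *H19*, *Ddc* and *Peg10* lie right of 0 and red in both.

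*H19* and *Igf2* lie on chromosome 7, at chr7:142575529-142578143 and chr7:142650766-142666816 of GRCm38 (both minus strand), and share enhancers that one control region hands to *H19* on the maternal and to *Igf2* on the paternal chromosome. *H19* stood at 1680, 1320, 1420 and 1280 CPM in WT and at 3690, 2820, 2480 and 2690 CPM in Mtm1-/y. Every Mtm1-/y library lay above every WT library, and *H19* was higher by 1.04 ± 0.18 (adjusted p = 0.000637). In treated mice it stood at 1230, 2330, 1610 and 1810 CPM in WT+TAM and at 3100, 3650 and 3860 CPM in Mtm1-/y+TAM, again without overlap, and was higher by 1.02 ± 0.19 (adjusted p = 0.00199). Both calls held in each of 23 alternatives, with log2 fold changes of 0.91 to 1.13 and 0.88 to 1.19.

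*Igf2* was scarce and its groups overlapped. It stood at 1.62, 0.869, 0.885 and 1.26 CPM in WT and at 7.74, 1.33, 2.1 and 1.43 CPM in Mtm1-/y, where replicate 1 lay far above the rest. The log2 fold change was 1.43 ± 0.5 (adjusted p = 0.043), and without Mtm1-/y replicate 1 it was 0.46 (adjusted p = 0.269). The call was lost in 13 of 23 alternatives, among them each of the 4 fits without a WT library, with log2 fold changes of 1.31 to 1.64. In treated mice *Igf2* stood at 2.82, 3.72, 3.88 and 2.29 CPM in WT+TAM and at 1.91, 1.22 and 2.37 CPM in Mtm1-/y+TAM, and the log2 fold change was -0.8 ± 0.53 (adjusted p = 0.321). So untreated and treated mice had opposite signs, and the interaction of genotype with tamoxifen was -2.22 ± 0.73 with an adjusted p of 0.379. The ratio of the 2 genes varied, with 1010 to 1600 *H19* counts per *Igf2* count in WT, 415 to 790 in WT+TAM, 476 to 2120 in Mtm1-/y and 1630 to 3000 in Mtm1-/y+TAM.

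**Figure D3:**
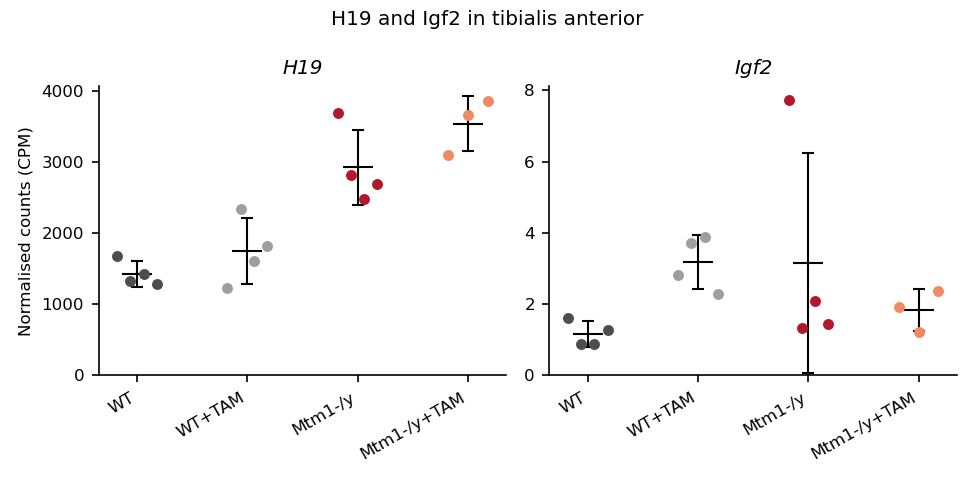
*H19* (left) and *Igf2* (right) in CPM by group; each point is a library, and bars are the mean ± SD. *H19* is at 2480 CPM or more in all 7 Mtm1-/y and Mtm1-/y+TAM libraries and at 2330 CPM or less in the WT and WT+TAM libraries, while the *Igf2* mean of Mtm1-/y rests on a single library at 7.74 CPM.

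Other imprinted genes restrain IGF2 and insulin action. *Igf2r*, the receptor that carries IGF2 to lysosomes, was at 111 ± 13.8 CPM in WT and had a log2 fold change of 0.08 ± 0.1 in Mtm1-/y (adjusted p = 0.579). Its antisense partner *Airn*, which silences *Igf2r* on the paternal chromosome, had -0.12 ± 0.2 (adjusted p = 0.672). *Grb10*, an adaptor that inhibits insulin and IGF receptors, had 0.01 ± 0.19 in untreated mice (adjusted p = 0.979) and -0.57 ± 0.21 in treated mice (adjusted p = 0.0698). None of the 3 was called in either comparison in edgeR's fit to all libraries, while *Grb10* was called in treated mice by DESeq2 and without WT+TAM replicate 1 or Mtm1-/y replicate 1. On a list of 14 other genes of IGF2 signalling and *Igf2* mRNA binding, 12 were tested and 3 called in Mtm1-/y against WT (25%, against 30.4% of all genes). *Igfbp2*, an IGF binding protein, went from 0 to 0.133 CPM in WT to 1.3 to 17.8 CPM in Mtm1-/y, without overlap. *Igf2bp2*, whose protein binds *Igf2* mRNA, was higher by 1.3 ± 0.44 (adjusted p = 0.0385) and *Igfbp7*, another IGF binding protein gene, lower, at -0.76 ± 0.24 (adjusted p = 0.0249), both with groups that overlapped. *Igfbp5*, the most abundant of the list in WT, was not called, though its groups did not overlap. It lay at 671 to 749 CPM in WT and lower, at 43.8 to 359 CPM, in Mtm1-/y. Its treated groups overlapped, at 170 to 689 CPM in WT+TAM and 167 to 398 CPM in Mtm1-/y+TAM. In treated mice *Igf2bp2* and *Igfbp2* were called, again higher, which was 16.7% of the list against 20.1% of all genes. The receptor genes *Igf1r* and *Insr* were not called, with 0.37 ± 0.2 and -0.16 ± 0.16 in untreated mice.

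The *Dlk1*-*Dio3* cluster on chromosome 12 carries protein genes expressed from the paternal allele and a row of long noncoding RNAs from the maternal allele. *Meg3* (chr12:109541001-109571726), *Rian* (chr12:109603940-109661716, host of small nucleolar RNAs) and *Mirg* (chr12:109729764-109749460, host of miRNAs) run along the plus strand. *Meg3* stood at 258, 255, 186 and 191 CPM in WT and at 49.5, 67, 108 and 78.6 CPM in Mtm1-/y. *Rian* stood at 218, 221, 160 and 155 CPM in WT and at 21.2, 24.3, 76.4 and 41.6 CPM in Mtm1-/y. *Mirg* stood at 23.5, 16.9, 13.3 and 10.9 CPM in WT and at 3.82, 3.39, 7.21 and 4.95 CPM in Mtm1-/y. In each of the 3 every mutant library lay under every WT library, and replicate 3 was the highest mutant. *Meg3* was lower, at -1.55 ± 0.46 (adjusted p = 0.0226) and *Rian*, at -2.2 ± 0.62 (adjusted p = 0.0177), and *Mirg* just missed the threshold at -1.74 ± 0.63 (adjusted p = 0.0549), with a call in 5 of 23 alternatives. Leaving out WT replicate 1 or 2 or Mtm1-/y replicate 1 or 2 took *Meg3* to adjusted p values of 0.0504 to 0.0667, and leaving out Mtm1-/y replicate 1 or 2 took *Rian* to 0.0521 and 0.0503.

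*Dlk1* (chr12:109452823-109463336), which encodes a transmembrane EGF-repeat protein that holds back adipocyte differentiation, is expressed from the opposite allele. It stood at 1.35, 1.07, 1.42 and 1.47 CPM in WT and at 0.418, 0.484, 0.572 and 0.56 CPM in Mtm1-/y. These groups did not overlap, and *Dlk1* was lower, at -1.38 ± 0.35 (adjusted p = 0.00867). The call held in all 22 alternatives that tested it, as the stricter filter removed this gene. Called members of this cluster expressed from either parental allele were thus lower in Mtm1-/y. *Rian* counts came to 81.3% to 86.4% of *Meg3* counts in WT and 36.3% to 70.5% in Mtm1-/y, ranges that did not overlap, whereas *Mirg* came to 5.72% to 9.11% and 5.06% to 7.71%.

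Treated wild type muscle held both the highest and the lowest levels outside the mutants. *Meg3* stood at 69.9, 476, 386 and 523 CPM in WT+TAM, *Rian* at 31.9, 418, 288 and 429 CPM and *Mirg* at 1.8, 34.9, 33.4 and 35.7 CPM. In all 3 genes replicate 1 fell within or under the mutant range and the other libraries lay above every WT library. Mtm1-/y+TAM stood at 75.4, 76 and 129 CPM for *Meg3*, 40.7, 42.4 and 60.1 CPM for *Rian* and 4.29, 4.4 and 8.48 CPM for *Mirg*. Against WT+TAM these were lower, at -1.96 ± 0.52 (adjusted p = 0.0186), -2.61 ± 0.7 (adjusted p = 0.0208) and -2.19 ± 0.71 (adjusted p = 0.0459), and the groups overlapped through WT+TAM replicate 1 alone, the library with the summed 3070 CPM of fibroblast and 38.4 CPM of adipocyte markers, whose part in these values was not tested. *Dlk1* stood at 1.02, 3.01, 0.796 and 1.3 CPM in WT+TAM and at 0.477, 0.424 and 0.579 CPM in Mtm1-/y+TAM, without overlap, and was lower, at -1.59 ± 0.4 (adjusted p = 0.0112). In 17 of 23 alternatives the *Mirg* call was lost, at an adjusted p as high as 0.24. The *Meg3*, *Rian* and *Dlk1* calls were each lost without Mtm1-/y+TAM replicate 2 (adjusted p = 0.0828, 0.0842 and 0.0584). Without Mtm1-/y+TAM replicate 1 *Meg3* and *Rian* were lost (adjusted p = 0.0739 and 0.0759), without replicate 3 *Rian* (adjusted p = 0.0521), with no filter both genes, and with the replicate block *Rian*. In treated mice *Rian* came to 45.6% to 87.7% of *Meg3* counts in WT+TAM and 46.6% to 55.9% in Mtm1-/y+TAM, ranges that overlapped. With Mtm1-/y replicate 1 and WT+TAM replicate 1 left out, all 4 genes were called lower in both genotype comparisons.

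**Figure D4:**
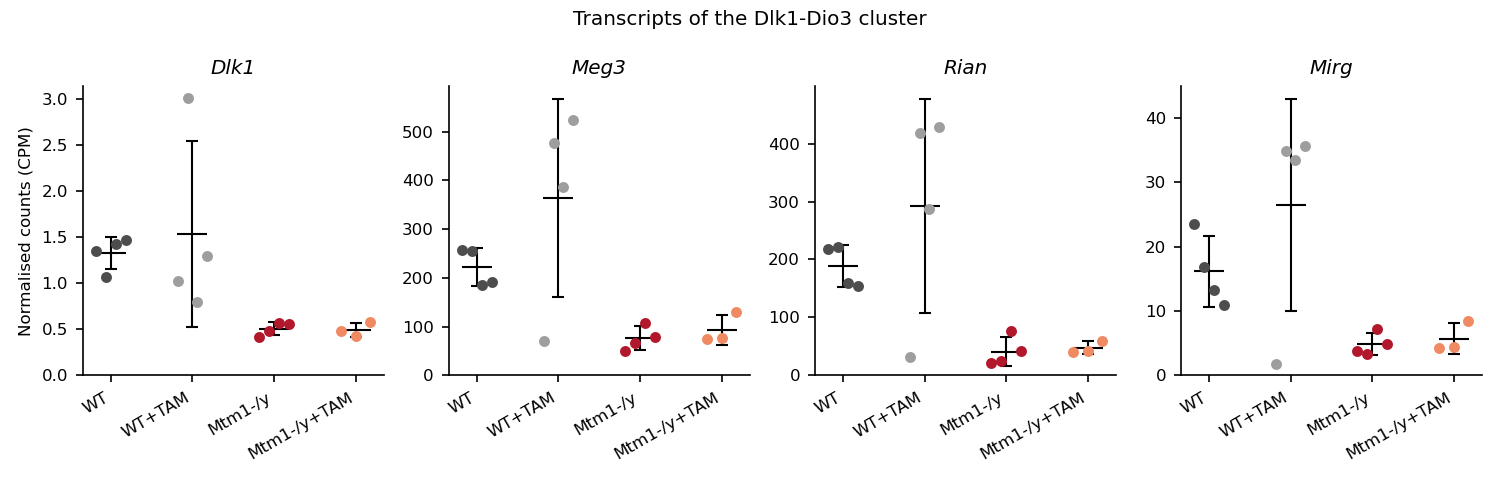
*Dlk1*, *Meg3*, *Rian* and *Mirg* in CPM by group; each point is a library, and bars are the mean ± SD. The 7 mutant libraries sit low in all 4 panels, and WT+TAM replicate 1, at 69.9 CPM of *Meg3*, sits among them in the 3 noncoding genes while the other WT+TAM libraries lie above WT.

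Among the other clusters *Peg10* and *Ddc* rose most. *Peg10* (chr6:4747306-4760517), a retrotransposon-derived gene needed for the placenta, stood at 0.886, 0.83, 0.752 and 0.821 CPM in WT and at 4.42, 3.79, 2.83 and 4.43 CPM in Mtm1-/y. It was higher by 2.23 ± 0.33 (adjusted p = 0.000223), the smallest adjusted p of any member in this comparison, while its neighbours *Sgce*, *Ppp1r9a* and *Asb4* were not called. *Ddc* (chr11:11814101-11898144), the aromatic amino acid decarboxylase that makes dopamine, stood at 0.172, 0.474, 0.487 and 0.293 CPM in WT and at 1.28, 2.82, 1.4 and 1.9 CPM in Mtm1-/y. It was higher by 2.42 ± 0.45 (adjusted p = 0.00113). Neither gene's groups overlapped, and both calls held in all 23 alternatives. In treated mice *Peg10* stood at 0.858, 2.29, 1.23 and 1.03 CPM in WT+TAM and at 1.96, 4.77 and 2.01 CPM in Mtm1-/y+TAM, groups that overlapped. *Ddc* stood at 0.531, 1.58, 0.772 and 0.381 CPM in WT+TAM and at 2.23, 3.42 and 1.64 CPM in Mtm1-/y+TAM, groups that did not. *Peg10* was higher by 1.14 ± 0.34 (adjusted p = 0.0278) and *Ddc* by 1.6 ± 0.44 (adjusted p = 0.0179). Without Mtm1-/y+TAM replicate 2 these were 0.58 (adjusted p = 0.268) and 1.26 (adjusted p = 0.111), and the *Peg10* call was also lost without WT+TAM replicate 1, 3 or 4 (adjusted p = 0.0582 to 0.0723).

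*Peg3* (chr7:6703892-6730431), a zinc finger gene known from muscle progenitors, stood at 155, 121, 95.6 and 97.8 CPM in WT and at 502, 254, 225 and 191 CPM in Mtm1-/y. It was higher by 1.32 ± 0.39 (adjusted p = 0.0207), and without Mtm1-/y replicate 1 by 0.93 (adjusted p = 0.0707). Leaving out WT replicate 3 or 4 also lost the call (adjusted p = 0.0549 and 0.0561). In treated mice it stood at 46.6, 143, 154 and 198 CPM in WT+TAM and at 344, 247 and 290 CPM in Mtm1-/y+TAM, with no overlap and 1.12 ± 0.41 (adjusted p = 0.0712), and 4 of 23 alternatives called it, DESeq2 and limma-voom among them. The neighbours *Zim1*, from the maternal allele, and *Usp29*, from the paternal allele, had 1.05 ± 0.42 and 0.64 ± 0.47 in untreated mice, neither called. All 3 genes of the cluster had their highest level of any library in Mtm1-/y replicate 1 and their lowest in WT+TAM replicate 1, which held 46.6 CPM of *Peg3*, 4.78 CPM of *Zim1* and 0.327 CPM of *Usp29*. In these 2 libraries genes of the cluster thus moved together, whichever allele they are expressed from.

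Lower in Mtm1-/y were *Mest*, *Snrpn*, *Slc38a4* and *Nnat*. *Mest* (chr6:30723547-30748465), of the hydrolase-fold family and linked to adipocyte size, stood at 6.47, 6.56, 11.4 and 12.2 CPM in WT and at 0.628, 3.15, 2.76 and 3.2 CPM in Mtm1-/y, lower, at -1.92 ± 0.49 (adjusted p = 0.00974). *Snrpn* (chr7:59982495-60140219) stood at 73.3, 37, 39.9 and 36.2 CPM in WT and at 12.4, 19, 20.9 and 20.5 CPM in Mtm1-/y, lower, at -1.36 ± 0.21 (adjusted p = 0.000363). *Slc38a4* (chr15:96994820-97055956) stood at 234, 177, 157 and 115 CPM in WT and at 88.9, 72.8, 75.2 and 54.2 CPM in Mtm1-/y, lower, at -1.23 ± 0.26 (adjusted p = 0.0029). None of these groups overlapped, and all 3 calls held in each of 23 alternatives. *Nnat* (chr2:157560078-157562522), the gene of a small membrane proteolipid, stood at 0.787, 1.34, 0.487 and 0.763 CPM in WT and at 0.0785, 0.363, 0.159 and 0.112 CPM in Mtm1-/y, without overlap, and was lower, at -2.33 ± 0.83 (adjusted p = 0.0456), with the call lost in 10 of 22 alternatives.

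In treated mice *Snrpn* stood at 40.2, 42.3, 48.9 and 45.6 CPM in WT+TAM and at 24.2, 25.4 and 23.1 CPM in Mtm1-/y+TAM. The groups did not overlap, and it was lower, at -0.87 ± 0.23 (adjusted p = 0.0159), though each fit without a Mtm1-/y+TAM library gave 0.0506 to 0.059. *Mest* was not called there, at 6.09, 7.49, 2.68 and 3.74 CPM in WT+TAM and 2.81, 6.43 and 2.19 CPM in Mtm1-/y+TAM (-0.36 ± 0.52, adjusted p = 0.676). The interaction for *Mest* was 1.55 ± 0.7 (adjusted p = 0.464). *Slc38a4* stood at 79.6, 97.1, 94.7 and 79.4 CPM in WT+TAM and at 69.5, 59.1 and 28.1 CPM in Mtm1-/y+TAM, without overlap (-0.75 ± 0.28, adjusted p = 0.073), and 4 of 23 alternatives called it, DESeq2 and limma-voom among them. *Nnat* stood at 3.88, 0.867, 0.627 and 0.381 CPM in WT+TAM and at 0.265, 0.291 and 1.46 CPM in Mtm1-/y+TAM, groups that overlapped, and had -1.01 ± 0.76 (adjusted p = 0.382). The difference between treated and untreated genotype effects was not called for any of these genes.

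**Figure D5:**
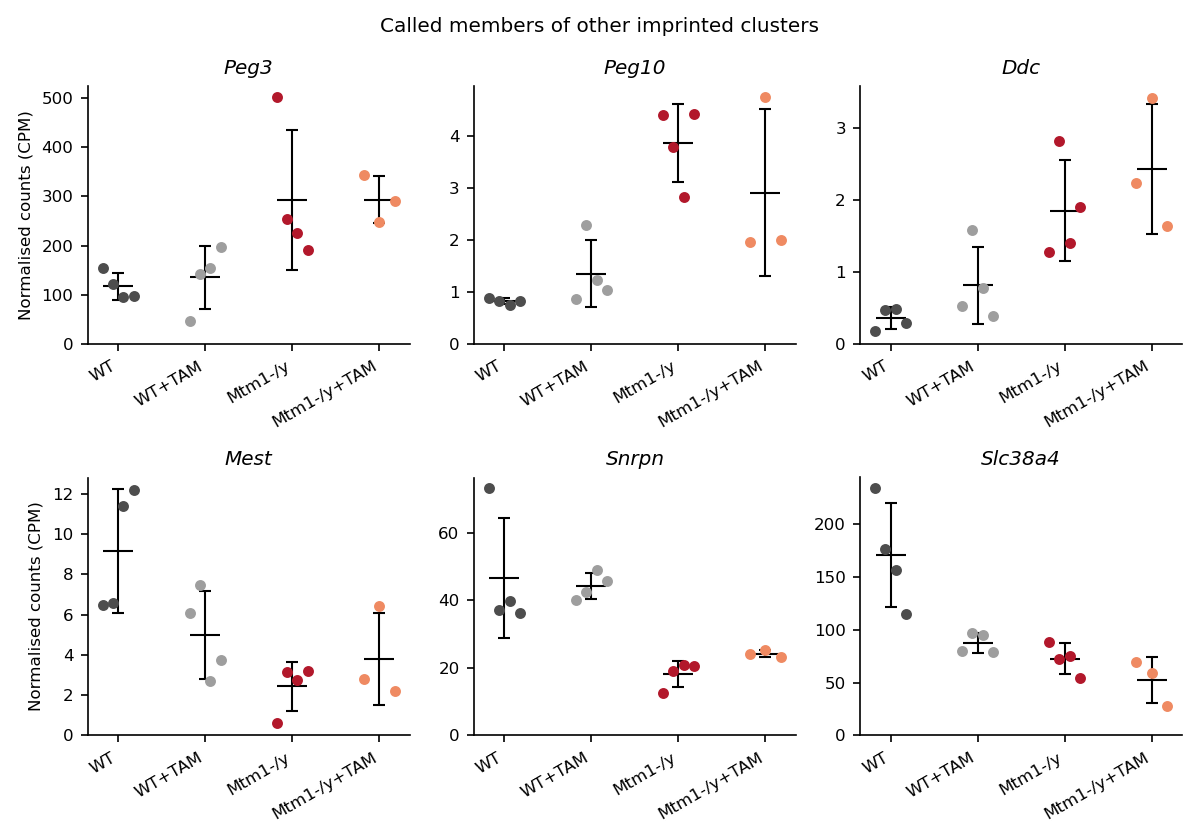
*Peg3*, *Peg10*, *Ddc*, *Mest*, *Snrpn* and *Slc38a4* in CPM by group; each point is a library, and bars are the mean ± SD. The upper 3 genes are higher and the lower 3 lower in Mtm1-/y than in every WT library, and *Slc38a4* in WT+TAM (79.4 to 97.1 CPM) lies under all WT libraries (115 to 234 CPM).

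Part of the *Snrpn* and *Mest* exons is shared with other genes, and the sources used here do not say whether counting used strand. *Snrpn* shares 27.3% of its exon bases with *Gm38393* on the same strand, a gene also called lower in Mtm1-/y (-2.19 ± 0.42, adjusted p = 0.00125). *Mest* shares 23.1% of its exon bases with *Copg2*, a coatomer subunit gene on the opposite strand, whose log2 fold change had the other sign in Mtm1-/y (0.18 ± 0.09, adjusted p = 0.149). *Cdkn1c* shares 30.7% with the antisense *Gm44732*, which had at most 7 counts in any library. On the opposite strand *Ube3a* shares 9.8% with *Gm44560* and 8.7% with *Snhg14*, *H13* 8.6% with *Gm26841*, *Commd1* 6.9% with *Zrsr1*, *Meg3* 6.8% with *Gm26906* and *Nnat* 4.8% with *Gm23134*.

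Small changes were also called. *Ube3a*, an E3 ubiquitin ligase gene imprinted in neurons, stood at 94.7, 90.2, 85.8 and 83.2 CPM in WT and at 74.9, 60.6, 84.3 and 61.1 CPM in Mtm1-/y, groups that overlapped through Mtm1-/y replicate 3. In treated mice it stood at 82.5, 78.1, 86.8 and 92.2 CPM in WT+TAM and at 73.4, 64.7 and 63.5 CPM in Mtm1-/y+TAM, without overlap. It was lower, at -0.33 ± 0.11 in Mtm1-/y (adjusted p = 0.0268) and at -0.34 ± 0.12 in treated mice (adjusted p = 0.0499). *Trappc9*, whose protein belongs to a vesicle tethering complex, stood at 57.3, 55, 53.5 and 57.6 CPM in WT and at 60.9, 66.5, 70.2 and 61.5 CPM in Mtm1-/y, higher by 0.21 ± 0.07 (adjusted p = 0.0346). *H13*, the gene of a signal peptide peptidase, stood at 38.7, 39.8, 39.8 and 39 CPM in WT and at 44.2, 48.4, 44.2 and 45.8 CPM in Mtm1-/y, higher by 0.21 ± 0.07 (adjusted p = 0.0285). Neither pair of groups overlapped, and in treated mice neither gene was called (0.06 ± 0.08 and 0 ± 0.07).

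In treated mice 3 further members were called. *Commd1*, which encodes a protein of copper handling and endosomal sorting, stood at 18.6, 20.7, 17.2 and 19.9 CPM in WT+TAM and at 28.2, 29.3 and 29 CPM in Mtm1-/y+TAM, higher by 0.6 ± 0.12 (adjusted p = 0.00379), and the call held in all 23 alternatives. *Copg2* stood at 19.1, 20.5, 16.4 and 16.4 CPM in WT+TAM and at 23.6, 24.9 and 21.9 CPM in Mtm1-/y+TAM, higher by 0.38 ± 0.1 (adjusted p = 0.0154). Neither gene's groups overlapped. *Kcnq1ot1*, the noncoding RNA that silences its cluster on the paternal chromosome, stood at 5.35, 5.56, 3.98 and 3.7 CPM in WT+TAM and at 8.59, 5.51 and 7.68 CPM in Mtm1-/y+TAM, which overlapped at replicate 2 of each group, and was higher by 0.64 ± 0.21 (adjusted p = 0.0376). The *Trappc9*, *H13* and both *Ube3a* calls were lost in 9, 8, 5 and 14 of 23 alternatives, *Kcnq1ot1* in 5 and *Copg2* in 1, without Mtm1-/y+TAM replicate 2 (adjusted p = 0.0806).

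In edgeR's test as fitted to all libraries, the members not called in either genotype comparison were *Igf2r*, *Airn*, *Cdkn1c*, *Slc22a18*, *Usp29*, *Zim1*, *Plagl1*, *Grb10*, *Gnas*, *Blcap*, *Sgce*, *Ppp1r9a*, *Asb4*, *Ndn*, *Impact*, *Zrsr1*, *Peg13* and *Mcts2*. Nearest to a call were *Ndn*, a gene of the MAGE family, in untreated mice (0.46 ± 0.18, adjusted p = 0.0577) and *Plagl1*, a zinc finger transcription factor gene, in treated mice (-1.16 ± 0.4, adjusted p = 0.0515). Of 23 alternatives, 12 called *Plagl1* lower in treated mice, DESeq2 and limma-voom among them, and 4 did in untreated mice. *Ndn* was called in 5 in untreated mice and 1 in treated mice, *Zim1* in 2 in untreated mice and *Grb10* in 4 in treated mice, each with DESeq2 among them except *Ndn* in treated mice. *Gnas*, at 999 to 1130 CPM in WT and 970 to 1130 CPM in Mtm1-/y, had -0.02 ± 0.09 (adjusted p = 0.893). *Cdkn1c*, a maternally expressed growth inhibitor gene of muscle differentiation, had -0.07 ± 0.24 (adjusted p = 0.846).

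By expressed allele, Mtm1-/y against WT called 3 of 11 tested maternal genes (1 higher, 2 lower), 8 of 18 paternal genes (3 higher, 5 lower) and 4 of 8 genes of tissue or isoform dependent imprinting (3 higher, 1 lower), or 27.3%, 44.4% and 50% against 30.4% of all genes. In treated mice the counts were 5 of 11 (2 higher, 3 lower), 4 of 18 (2 higher, 2 lower) and 3 of 8 (2 higher, 1 lower), or 45.5%, 22.2% and 37.5% against 20.1% of all genes. Each class thus held calls in both directions. The median log2 fold changes in untreated mice were 0.08, -0.11 and 0.08, beside 0 over all genes.

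Tamoxifen was tested within each genotype. In mutant mice, Mtm1-/y+TAM against Mtm1-/y, edgeR, DESeq2 and limma-voom each called 0 of 37, where edgeR called 0.0129% of all genes. An unadjusted p under 0.05 was reached by 3 members in edgeR, against 5.54% of all genes, by 3 in DESeq2 and by 2 in limma-voom. Their smallest adjusted p was 0.855. The median size of the log2 fold change was 0.15, as it was over all genes. Groups did not overlap for *Snrpn* and *Commd1*, both with a higher mean under tamoxifen (0.41 ± 0.22 and 0.33 ± 0.12), and for 3.33% of all genes in that direction, with 2.38% in the other and 5.71% in all. The values nearest to a call were those of *Commd1*, *Nnat* (2.06 ± 0.87) and *Kcnq1ot1* (0.47 ± 0.2).

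Between WT+TAM and WT 0 of 37 members were called in edgeR, against 0.309% of all genes (0.18% higher, 0.129% lower), and 5 had an unadjusted p under 0.05, against 11.3% of all genes. DESeq2 had 7 such members and limma-voom 5, and DESeq2 called 1, *Slc38a4*, and limma-voom 0. Groups did not overlap for 4 members with higher and 2 with lower levels under tamoxifen, where 4.22% and 3.86% of all genes did not, 8.08% in all. That gene was 79.4 to 97.1 CPM in WT+TAM, under every WT library, with -0.96 ± 0.26 (adjusted p = 0.153). *Igf2* was 2.29 to 3.88 CPM in WT+TAM, above every WT library, with 1.43 ± 0.5 (adjusted p = 0.283). Mtm1-/y replicate 1 is in neither group of this contrast, but leaving it out renewed the filter, scaling, spread and adjustment. Without that library *Igf2* was called, and without WT+TAM replicate 1 as well *Igf2* and *Meg3* were. Which of these steps mattered was not tested. In the interaction of genotype with tamoxifen each of the 3 tools called 0 members, and edgeR 0% of all genes. An unadjusted p under 0.05 was reached by 5 members in edgeR, against 10.6% of all genes, by 7 in DESeq2 and by 5 in limma-voom. The smallest adjusted p was 0.379, for *Igf2* and *Kcnq1ot1* (0.84 ± 0.28).

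Imprints are kept by DNA methyltransferases and by zinc finger proteins that guard methylated control regions. A further list held 20 genes with a row that maintain imprints or otherwise act on DNA methylation or chromatin. Of these 19 were tested and 10 called in Mtm1-/y against WT (52.6%, against 30.4% of all genes), 8 lower and 2 higher. The share is thus not one of maintenance genes alone. The lower ones were *Arid4a*, *Ctcf*, *Dnmt1*, *Dnmt3a*, *Kdm1b*, *Tet3*, *Uhrf1* and *Zfp57*, and the higher ones *Ehmt2* and *Tet2*. *Dnmt3a*, which sets methylation de novo, fell from 142 to 179 CPM in WT to 51.4 to 92.8 CPM in Mtm1-/y (-0.99 ± 0.15, adjusted p = 0.00024), and *Tet3*, which oxidises methylcytosine, from 38.9 to 44.4 CPM to 23.6 to 28 CPM (-0.74 ± 0.09, adjusted p = 3.1e-05). *Zfp57*, which binds methylated control regions, fell from 1.16 to 1.64 CPM to 0.575 to 0.847 CPM (-0.88 ± 0.25, adjusted p = 0.0168). *Uhrf1*, the partner of *Dnmt1*, was lower, at -1.86 ± 0.43 (adjusted p = 0.0048). In treated mice *Arid4a*, *Ctcf*, *Dnmt3a*, *Kdm1b* and *Tet3* were called, all lower, which was 26.3% of the list against 20.1% of all genes. Methylation was not measured.

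The promoters of 3 called members are shown because they are known to be methylated on one parental chromosome and because *Peg3* moved in the opposite direction to *Meg3* and *Mest*. Each sequence is the 250 bases before a RefSeq start (GRCm38.p6), 5′ to 3′ on the gene's strand. Among a gene's starts, the first whose window of 300 bases held the most motif matches was taken, which favours matches in the sequences shown. The shares of windows given below rest on no such choice. Capitals mark TGACGTCA, the cAMP response element, and TGCCGC or its reverse complement GCGGCA, the core bound by ZFP57 when methylated. The motifs do not overlap in these sequences, and they were chosen after the sequences had been seen.
*Meg3* (chr12:109540746-109540995, plus strand): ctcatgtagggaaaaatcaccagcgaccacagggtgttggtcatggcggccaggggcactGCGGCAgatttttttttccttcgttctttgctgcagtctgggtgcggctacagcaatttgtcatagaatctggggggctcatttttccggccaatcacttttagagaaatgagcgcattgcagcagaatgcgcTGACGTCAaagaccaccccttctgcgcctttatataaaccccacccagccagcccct
*Mest* (chr6:30737800-30738049, plus strand): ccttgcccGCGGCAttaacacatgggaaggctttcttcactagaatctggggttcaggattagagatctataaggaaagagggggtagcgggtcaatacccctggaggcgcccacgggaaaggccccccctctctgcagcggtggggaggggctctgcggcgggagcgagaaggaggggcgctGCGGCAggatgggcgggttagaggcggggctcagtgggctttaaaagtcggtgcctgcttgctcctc
*Peg3* (chr7:6730420-6730669, minus strand): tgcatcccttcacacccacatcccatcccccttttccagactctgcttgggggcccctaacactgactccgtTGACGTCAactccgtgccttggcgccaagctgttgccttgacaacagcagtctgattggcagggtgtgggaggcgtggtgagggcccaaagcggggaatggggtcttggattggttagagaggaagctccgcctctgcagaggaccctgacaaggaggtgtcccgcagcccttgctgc
TGACGTCA occurs once in *Meg3*, which was lower in Mtm1-/y, and once in *Peg3*, which was higher. It was found in 3 of the 54 member windows, those of *Meg3*, *Peg3* and *Usp29*. Of 32851 mouse promoter windows, each of 300 bases with the 50 bases after the start included, 1.79% held it. The core TGCCGC or GCGGCA occurs once in the *Meg3* window and 2 times in that of *Mest*. It was found in 13 of 54 member windows (12 of the 35 members with a window), and in 11.61% of all windows. The core holds a CG pair, and member windows had a median of 13 CG pairs, against 7 over all windows. The part of this in the matches was not tested. TATAAA, searched on the gene's strand, was found in 6 of the 54 member windows and in 8.32% of all windows. A match describes letters and not binding.

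Some markers of fibres and of other cells differed with genotype, where 30.4% of all tested genes were called in Mtm1-/y against WT. Of the 5 fast fibre genes *Acta1* (-0.43 ± 0.15, adjusted p = 0.0349) and *Tnnt3* (-0.51 ± 0.11, adjusted p = 0.00299) were called lower in Mtm1-/y, and the other 3 had log2 fold changes of -0.3 to -0.22. The 5 endothelial markers were all called lower in Mtm1-/y, summing to 376 to 493 CPM in WT and 191 to 264 CPM in Mtm1-/y. Of 7 genes of myogenic progenitors and immature fibres 6 were called (85.7%), 5 higher and 1 lower. Of these *Myog*, which drives myoblast differentiation, went from 4.9 to 9.53 CPM in WT to 24.1 to 64.4 CPM in Mtm1-/y, and *Pax7*, the satellite cell marker, from 5.31 to 7.39 CPM to 0.887 to 1.4 CPM. The summed myogenic list was 38.5 to 54.5 CPM in WT and 94.1 to 165 CPM in Mtm1-/y, highest in replicate 1, which of the Mtm1-/y libraries was also highest in *Igf2*, *H19* and *Peg3* and lowest in the fibroblast sum. The 5 adipocyte markers summed to 3.22 to 5.77 CPM in WT and 0.381 to 2.67 CPM in Mtm1-/y. Their smallest adjusted p was 0.121 in edgeR. Of 5 fibroblast, 5 macrophage and 5 Schwann cell markers 1, 1 and 2 were called (20%, 20% and 40%), all higher, as were 15.5% of all genes. Their sums in WT and Mtm1-/y were 973 to 1260 and 324 to 1320 CPM for fibroblast, 16.1 to 24.6 and 15.4 to 31.4 CPM for macrophage and 51.5 to 77.4 and 68.9 to 102 CPM for Schwann cell markers. Neuronal markers were near 0, with 1 of 5 past the filter and a sum of 1.48 to 3.87 CPM over all libraries. The part of these cell types in the differences of imprinted genes was not tested.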

How the data were processed

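Counts per Ensembl gene were deposited by the authors as raw counts, with no normalization, in a table with a column per sample. The submitters' processing notes list the builds mm10 and GRCm38 and the tools STAR 2.5.3a, HTSeq 0.6.1p1, cutadapt 1.10 and Bowtie2 2.2.8, and RNA was extracted with TRI Reagent and made into TruSeq stranded mRNA libraries. The sources used here do not give the annotation release, read filters, strand setting or tamoxifen regimen.

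Every one of the 30672 identifiers matched GENCODE M21. The analysis used edgeR 4.0.16 under R 4.3.3, with filterByExpr on 4 groups (minimum count 10), TMM factors, and a robust quasi-likelihood fit of 4 group means to all 15 libraries (11 residual degrees of freedom). Contrasts were adjusted by Benjamini-Hochberg over 15533 genes. Within each group libraries differed beyond sampling noise. The member genes, lists and tests were chosen with earlier results of these data known. Values per library are given for *H19*, *Igf2* and members called in any contrast, and every member is accounted for. Members named as nearest to a call were picked after their values were seen. The 23 alternatives for single genes were RLE and upper-quartile factors, other filters, DESeq2 1.42.0, limma-voom (limma 3.58.1), a replicate block, leaving out each library, and leaving out Mtm1-/y replicate 1 with WT+TAM replicate 1. A 2-fold minimum was applied only to the numbers of members called.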

Additional observations from a re-analysis of the deposited data

Results flagged for a closer look

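Within the groups of 4, 10 of 111 sets of values (9.01%) had a library that stood apart. Its gap to its nearest neighbour, as a share of the group's range of log2 CPM, was above Dixon's critical value for 4 samples. Chance flags about 1 in 20 where values are normal and sets independent. These sets share libraries, and genes of a cluster can move together, so the shares cannot be compared strictly. WT+TAM replicate 1 gave 4 of the 10, each as the lowest value. It held 69.9 CPM of *Meg3* where the rest of its group held 386 to 523 CPM, 31.9 CPM of *Rian* against 288 to 429 CPM, 1.8 CPM of *Mirg* against 33.4 to 35.7 CPM and 0.327 CPM of *Usp29* against 2.4 to 2.97 CPM. Mtm1-/y replicate 1 gave 3, with 47.1 CPM of *Zim1* as the highest (others 13.9 to 16.9 CPM), 0.628 CPM of *Mest* as the lowest (others 2.76 to 3.2 CPM) and 16.8 CPM of *Commd1* as the lowest (others 24.4 to 25.9 CPM). WT replicate 1 was highest in *Snrpn* at 73.3 CPM (others 36.2 to 39.9 CPM). WT replicate 4 was lowest in *Airn* at 3.67 CPM (others 5.18 to 5.22 CPM), and Mtm1-/y replicate 3 was lowest in *Igf2r* at 99.2 CPM (others 122 to 127 CPM).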

How the results depend on the processing

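Of the 27 calls of a member in a contrast, 9 held in every alternative that tested them, the 2-fold minimum aside. Over 618 alternative values 507 kept the call, 111 lost it and 0 changed sign. Members called in Mtm1-/y against WT numbered 8 with no filter and 9 to 16 on leaving out a library. In Mtm1-/y+TAM against WT+TAM they numbered 7 with no filter, 7 with a 2-fold minimum and 3 to 14 on leaving out a library. DESeq2 called 18 and 16 in these contrasts, limma-voom 15 and 13. Members not otherwise called were gained in some alternatives: *Mirg*, *Zim1*, *Plagl1*, *Ndn* and *Commd1* in untreated mice, and *Igf2*, *Peg3*, *Plagl1*, *Grb10*, *Ndn* and *Slc38a4* in treated mice. In WT+TAM against WT DESeq2 called 1, leaving out a library gave 0 to 1, and leaving out Mtm1-/y replicate 1 and WT+TAM replicate 1 together gave 2. In the other 2 contrasts 0 were called in every alternative. *H19* in Mtm1-/y against WT gave log2 fold changes of 0.91 to 1.13 on leaving out a library, and *Igf2* 0.46 to 1.67. For *Igf2* the call was also lost with no filter (1.43), limma-voom (1.04), the replicate block (1.21) and both libraries left out (0.45). Same-numbered samples of different groups showed no clear pairing. Of 21 such pairs 6 had a correlation of deviations over 0.1 (-0.113 to 0.306), and 5 of 15 libraries correlated best with their own number. With so few libraries per group this check cannot exclude shared litters or batches. With the replicate number as a block, 13 and 10 members were called in the 2 genotype contrasts, and 0 in the others. The stricter filter (minimum count 50) tested 34 members, without *Dlk1* and *Nnat*. With no filter more genes entered the scaling, the estimate of spread and the adjustment. The cause of the changes under any alternative was not tested. Members with few counts, such as *Dlk1* (9 to 59 per library), *Nnat* (3 to 95) and *Ddc* (7 to 129), are the least precise.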
